A study of Danio rerio with 30 samples.

Results

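The measurement described here is the change, between 32 and 56 hours post-fertilisation (hpf), in how the optic fissure region (OF) of the zebrafish retina differed from the dorsal retina (DR). For each gene the difference OF minus DR of log2(normalised count + 1) was taken within each replicate number, which gave 5 differences at 56 hpf (replicates 1 to 5) and 4 at 32 hpf (replicates 2 to 5). These 9 pairs used 18 of the 30 RNA sequencing libraries of the series, and the libraries of 48 hpf were not used. The mean difference at 56 hpf minus the mean difference at 32 hpf is called the interaction below. A positive interaction means that OF gained on DR between the times, and a negative one that it lost ground relative to DR. Either can come from a change in OF, in DR or in both.

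The study sampled dissected retinal regions of zebrafish embryos (Danio rerio) before, during and after the fissure fuses. The groups used were OF at 56 hpf, DR at 56 hpf, OF at 32 hpf and DR at 32 hpf. The labels state no strain, genotype or treatment for any of them, and they do not say whether a replicate held 1 embryo or a pool. RNA was prepared with a kit designed for fixed, paraffin-embedded tissue and amplified with a low-input kit, and the submitters describe the replicates as biological.

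The optic fissure is a transient gap on the ventral side of the optic cup, through which blood vessels enter the eye, and its failure to close leaves a coloboma. The retina around it is patterned along a dorsoventral axis, with Vax and Pax2 factors and netrin on the ventral side and Tbx factors and BMP signals on the dorsal side. Retinoic acid synthesis genes are found on both sides. Over the same hours retinal progenitors leave the cell cycle in an ordered wave, and in zebrafish neurons and photoreceptors differentiate first in a ventral patch beside the fissure. With no sample of ventral retina outside the fissure, the fissure and its ventral position cannot be told apart.

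The 18 libraries held 5904927 to 11345612 reads in genes and a read in 17462 to 25740 genes. The highest gene number belonged to DR replicate 1 at 56 hpf, which also had the fewest reads. Retinal genes such as pax6a, six3b and rx2 were present in all 4 groups, with group means of 695 to 6722 normalised counts. Both pairs of replicates 1 and 2 at 56 hpf stood apart by their muscle genes, which took 0.463% and 0.33% of reads in OF and 0.109% and 0.16% in DR, whereas the other 6 libraries of 56 hpf held 0.00279% to 0.00676%. The counts below are therefore also given without these pairs, an alternative chosen after the data had been seen.

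Of 17031 genes tested, 49 changed their regional difference between the times at an adjusted p under 0.05 (limma on the paired differences, two-sided, Benjamini-Hochberg adjustment over all genes tested), which is 0.288%. The interaction was positive for 32 genes (0.188%) and negative for 17 (0.0998%). An unadjusted p under 0.05 was reached by 1703 genes, or 10% of those tested. In 48 of the 49 the 5 differences at 56 hpf did not overlap the 4 at 32 hpf, the exception being id2a. Such separation was seen in 4.52% of all genes tested, with the higher values at 56 hpf in 2.4% and at 32 hpf in 2.12%. The 49 genes were called on these same differences, so their separation is largely built in and only describes them. For 6 of the 49 no library used of 32 hpf held a read, so all their differences of that time were 0. In those genes the separation says only that OF was above DR in every pair of 56 hpf. The median interaction over all genes was -1e-04, with 50% of genes on either side of 0.

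The 49 genes took 4 courses. Within the same fit, the difference between regions itself was called in 31 of them at 56 hpf, against 4.06% of all genes tested, and in 25 of them at 32 hpf, against 2.49%. The 49 genes were picked by this fit, so such an excess is largely built in and only describes them. In 23 OF was above DR at 56 hpf by more than the regions differed at 32 hpf, and genes of opsins, arrestins and transducins were among the largest of these. In 9 genes OF was below DR at 32 hpf and the regions were closer at 56 hpf, on whichever side, among them the dorsal T-box genes tbx3a and tbx2a. In 16 genes OF was above DR at 32 hpf and the mean gap was smaller at 56 hpf, on whichever side. Among them were ntn1a, the vessel list members apln and erg and the photoreceptor genes pde6g and samd7. The 16 also hold genes that turned round: si:ch211-251b21.1 went from 0.82 to -0.81, at nearly the same size, and mrc1a from 4.27 to -2.25. The courses go by mean differences, so the 7 genes whose pairs all changed sign, described below, fall within them. For the remaining gene, prim1, the regions differed by -0.04 at 32 hpf and OF was the lower at 56 hpf.

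The number of calls rests on the pairing and on few libraries. Without the replicate block, 2 genes were called (arr3b and rhol). Leaving out single pairs gave 19 to 57 calls, and 17 of the 49 genes kept theirs each time: rho, rhol, opn1sw1, arr3b, gnat2, gnb3b, gngt1, rom1a, rbp2a, BX004774.2, slc25a3a, tbx3a, pah, arl3l1, apln, mrc1a and si:ch211-251b21.1. The count dropped by more than 1.5 times without replicate 1 (19), 2 (32), 3 (22), 4 (32) or 5 (26) at 56 hpf, or without replicate 4 at 32 hpf (21). Without both pairs of replicates 1 and 2 at 56 hpf, 12 genes were called, all of them among the 49, with 11 positive and 1 negative. Of the 17 genes just named, that fit lost the calls of tbx3a and arl3l1 (limma, adjusted p = 0.0547 for each), pah and mrc1a (0.07 for each), gngt1 (0.0698), rbp2a (0.0747), gnat2 (0.0925) and apln (0.104). All 49 genes kept their direction in each of these fits.

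**Figure D1:**
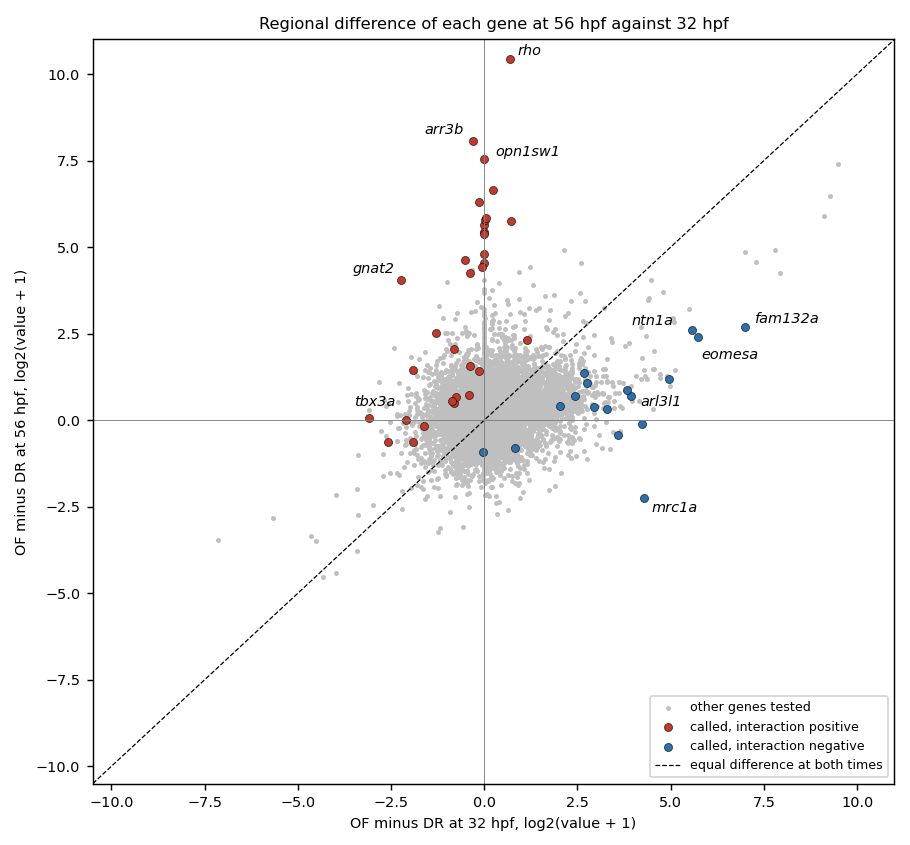
Each point is 1 of the 17031 genes tested, placed by its mean OF minus DR difference at 56 hpf (vertical axis) and at 32 hpf (horizontal axis), both on the log2(value + 1) scale. Red points are the 32 genes called with a positive interaction and blue points the 17 called with a negative one, and points above the dashed line gained in OF relative to DR. The photoreceptor genes rho, arr3b and opn1sw1 lie near 0 at 32 hpf and high at 56 hpf, whereas ntn1a and fam132a lie high at 32 hpf and lower at 56 hpf.

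Genes of mature photoreceptors gave the largest positive interactions. Rods and cones detect light with opsins, which act through transducin and a phosphodiesterase to close ion channels, and arrestins and guanylate cyclase activators restore the dark state. The rod opsin gene rho (ENSDARG00000002193) had 26792, 28659, 13189, 11184 and 6781 normalised counts in OF at 56 hpf, against 352, 412, 0, 0 and 0 in DR at 56 hpf. At 32 hpf it had 1.05, 0.811, 0 and 0.833 in OF, which is 3 reads in all, and 0 in DR. Every OF library of 56 hpf was above every DR library, and the 2 DR libraries with a value above 0 were those of replicates 1 and 2. The difference was 10.44 (SE 0.98) at 56 hpf and 0.69 (SE 1.09) at 32 hpf, with an interaction of 9.75 (SE 1.47, adjusted p = 0.0115).

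In ultraviolet cones the opsin gene is opn1sw1, and this gene (ENSDARG00000045677) held 7635, 3131, 754, 821 and 606 normalised counts in OF at 56 hpf, against 162, 247, 0, 0 and 0 in DR at 56 hpf. No library of 32 hpf held a read of it in either region. Its interaction of 7.54 (SE 1.14, adjusted p = 0.0115) therefore equals the difference at 56 hpf on the log2(value + 1) scale and gives no fold change over time. The red cone opsin gene opn1lw2 was read in both regions at 56 hpf, with 15383, 6335, 1290, 1967 and 1085 in OF and 749, 2507, 14.99, 103 and 32.0 in DR. OF was the higher in each of these pairs (interaction 4.65, SE 0.86, adjusted p = 0.0394), although the 2 groups overlapped.

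The rhodopsin-like gene rhol, at 41.6 to 83.5 in OF and 0 to 2.05 in DR at 56 hpf and without a read at 32 hpf, was also called (interaction 5.42, SE 0.77, adjusted p = 0.00774). The other opsin genes were not. The green opsin gene opn1mw1 had an interaction of 4.67 (adjusted p = 0.165), the red opsin gene opn1lw1 3.13 (0.29), the green opsin gene opn1mw2 1.91 (0.519) and the blue opsin gene opn1sw2 0.85 (0.835). The blue opsin gene was the only one of the 8 tested whose OF libraries held more than 15 normalised counts at 32 hpf, with 120, 144, 65.5 and 95.8 in OF against 13.3, 15.4, 28.2 and 39.3 in DR. Of 10 opsin genes found, 8 passed the filter on low values (a normalised count of 10 in 4 or more libraries). Of these, 4 were called, all positive, against 0.188% of all genes tested. Without the OF libraries of 56 hpf 6 of the 8 would not have passed the filter, so their sign was largely set by it and the count supports nothing further.

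Among the cone arrestin genes, arr3b (ENSDARG00000098475) had 942, 915, 821, 303 and 451 normalised counts in OF at 56 hpf, against 22.2, 2.05, 0, 0 and 0 in DR at 56 hpf. The 32 hpf libraries held 1.05, 5.68, 0 and 0 in OF and 6.65, 1.02, 1.04 and 0 in DR. The 56 hpf groups were apart and the 32 hpf groups overlapped, and its interaction of 8.37 (SE 0.96, adjusted p = 0.00264) was among the 3 with the smallest p. Its paralog arr3a showed an interaction of 5.04 (SE 0.94, adjusted p = 0.0407), and the rod arrestin gene saga, named after its values were seen, 3.55 (adjusted p = 0.0851).

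The cone transducin gene gnat2 (ENSDARG00000042529) was one of 7 called genes in which every pair of 56 hpf differed in sign from every pair used of 32 hpf. At 56 hpf it had 873, 309, 84.0, 88.5 and 73.7 normalised counts in OF and 40.2, 19.4, 8.82, 13.9 and 0 in DR. At 32 hpf it had 2.09, 0.811, 0 and 0 in OF and 3.80, 14.3, 4.18 and 6.41 in DR, so that DR was the higher at a level of few reads. The difference was 4.05 (SE 0.56) at 56 hpf and -2.24 (SE 0.62) at 32 hpf (interaction 6.29, SE 0.83, adjusted p = 0.0066). In the pair of replicate 1 at 32 hpf, which the comparison leaves out, OF was the higher by 1.31.

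Further genes of the cascade were called with a positive interaction: the transducin subunit genes gnb3b (6.43) and gngt1 (5.77), the outer segment disc gene rom1a (5.63), the recoverin gene rcvrn3 (5.39), the guanylate cyclase activator genes guca1b (5.15) and guca1g (4.53) and the phosducin gene pdca (2.88), with adjusted p between 0.00668 and 0.0423. For guca1g no read was found in DR at 56 hpf or in either region at 32 hpf, while OF at 56 hpf held 35.5, 19.0, 19.9, 19.7 and 19.9 normalised counts. Of 72 phototransduction and outer segment genes found, 60 passed the filter. Of these, 10 were called positive and 1 negative, against 0.188% and 0.0998% of all genes tested. Without the OF libraries of 56 hpf 24 of the 60 would not have passed, so the balance of signs in this list is partly set by it.

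Most of these calls differed between methods. Of the 49 called genes, 16 had at most 3 reads per library on average in both regions at 32 hpf, and all 16 had a positive interaction. With edgeR on the recovered reads, 0 of these 16 and 23 of the other 33 were called. That fit called 8 genes positive and 22 negative, a split of 26.7% positive against 65.3% with limma. DESeq2 called 5 of the 16, gave guca1g no adjusted p, and called all 33 of the others and 220 genes in all. Of the 8 opsin genes, rho, opn1sw1, opn1sw2, opn1mw1, opn1mw2 and opn1lw2 had their highest OF values of 56 hpf in replicates 1 and 2, the pairs with muscle reads, while opn1lw1 and rhol were highest in replicate 1 alone. Without these pairs the interaction was 12.6 for rho, 9.50 for opn1sw1 and 9.22 for arr3b, all 3 called. In the same fit the positive calls of opn1lw2 (limma, adjusted p = 0.0747), gnat2 (0.0925), gngt1 (0.0698), guca1b (0.0747), guca1g (0.0547) and pdca (0.28) were lost. Without replicate 1 at 56 hpf the interaction of opn1sw2 was -0.06.

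**Figure D2:**
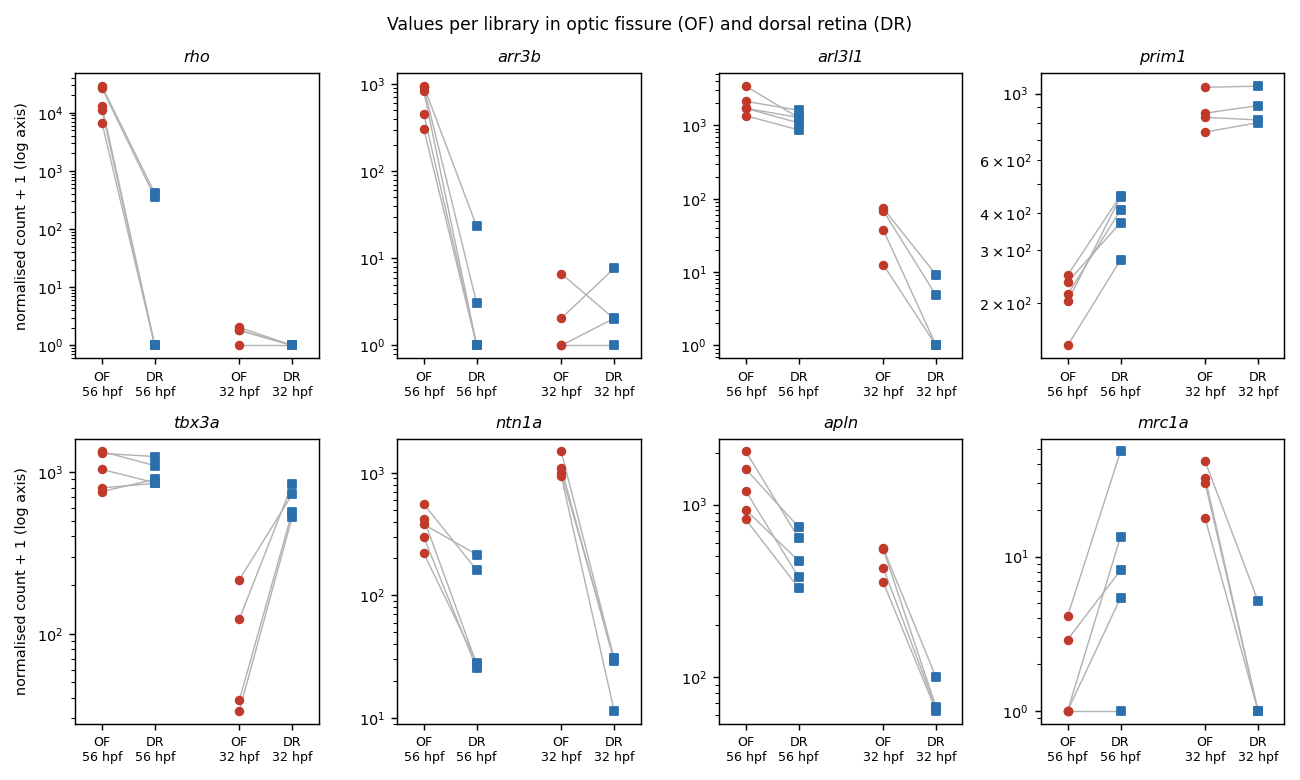
Normalised counts plus 1 on a log axis for 8 genes in every library, with OF as circles and DR as squares, 56 hpf on the left and 32 hpf on the right of each panel. Grey lines join the OF and DR library of 1 replicate number. The genes rho and arr3b are high in OF at 56 hpf alone, tbx3a is low in OF at 32 hpf alone, and the wide gaps of ntn1a and apln at 32 hpf are narrower at 56 hpf.

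The photoreceptor genes pde6g and samd7 and a gene of the ARL3 family, arl3l1, moved the other way, with a lead in OF that shrank. The small GTPase gene arl3l1 (ENSDARG00000102393) had 3419, 2125, 1708, 1710 and 1354 normalised counts in OF at 56 hpf, against 1271, 1608, 1080, 1279 and 865 in DR at 56 hpf. In the pairs of 32 hpf it had 68.0, 73.0, 36.9 and 11.7 in OF and 3.80, 8.19, 0 and 0 in DR. OF was above DR in all 9 pairs, and the lead was 0.71 (SE 0.26) at 56 hpf and 3.94 (SE 0.29) at 32 hpf (interaction -3.23, SE 0.39, adjusted p = 0.00348).

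The phosphodiesterase subunit gene pde6g, which encodes an inhibitory subunit of the rod enzyme, had 4406, 5566, 6087, 4970 and 4563 in OF at 56 hpf, against 2095, 4096, 3237, 3324 and 3269 in DR. At 32 hpf it had 790, 1109, 788 and 42.5 in OF and 175, 421, 140 and 2.404 in DR, so it was read in both regions at both times. Its interaction was -1.73 (SE 0.33, adjusted p = 0.0444). The gene samd7, a photoreceptor repressor known from the mouse, had an interaction of -1.62 (SE 0.27, adjusted p = 0.0231), with 915 to 1439 in OF and 738 to 1311 in DR at 56 hpf and 7.49 to 173 in OF and 2.404 to 42.0 in DR at 32 hpf.

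Of the 26 photoreceptor fate factors tested, samd7 was the 1 called, against 0.288% of all genes tested. The median interaction was -0.35 and 18 were negative, against 50% of all genes. The homeobox genes crx and otx5, which activate photoreceptor genes, had interactions of -0.84 (adjusted p = 0.181) and -0.69 (0.165), and the rod receptor gene nr2e3, named after its values were seen, -1.07 (0.121). For crx the OF libraries held 8585 to 14181 normalised counts and the DR libraries 6308 to 11021 at 56 hpf, and 72.4 to 1065 in OF and 20.8 to 733 in DR at 32 hpf. Replicate 5 at 32 hpf was the lowest pair for crx, otx5, samd7 and pde6g in both regions. The call of samd7 was lost without replicate 1, 3, 4 or 5 at 56 hpf or replicate 4 at 32 hpf (adjusted p up to 0.0998), and that of pde6g without any single pair but replicates 3 and 5 at 32 hpf (up to 0.145). A pseudocount of 5, quantile scaling and leaving out the filter also ended the call of samd7.

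Among dorsal genes, tbx3a and tbx2a were lower in OF at 32 hpf and differed little between regions at 56 hpf. T-box factors of the Tbx2 and Tbx3 family are transcription factors of the dorsal retina. The gene tbx3a (ENSDARG00000002216) had 1304, 1340, 797, 757 and 1037 normalised counts in OF at 56 hpf, against 1247, 1095, 851, 901 and 858 in DR at 56 hpf. Counts at 32 hpf were 122, 32.4, 37.8 and 215 in OF and 839, 527, 566 and 728 in DR. The 2 regions overlapped at 56 hpf and were apart at 32 hpf, with differences of 0.06 (SE 0.24) and -3.09 (SE 0.27) and an interaction of 3.15 (SE 0.36, adjusted p = 0.00264).

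For tbx2a (ENSDARG00000018025) the OF libraries held 1001, 811, 880, 739 and 838 at 56 hpf, against 953, 884, 935, 1062 and 932 in DR. At 32 hpf it had 221, 182, 175 and 419 in OF and 771, 692, 769 and 663 in DR. The regions overlapped at 56 hpf and were apart at 32 hpf, and both had higher values at 56 hpf (interaction 1.46, SE 0.26, adjusted p = 0.0325). Its call was lost in 7 of the 9 fits that left out a pair (adjusted p up to 0.118), all but those without replicate 4 at 56 hpf and replicate 5 at 32 hpf. The paralog tbx2b, at 2295 to 2912 in OF and 2483 to 3181 in DR at 56 hpf, had an interaction of 0.19 (adjusted p = 0.79).

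Of the 19 dorsal genes tested, 2 were called, both positive, against 0.188% of all genes tested. The median interaction was 0.83 and 16 were positive, against 50% of all genes. Several were uncalled with values of similar size. The T-box genes tbx5a and tbx5b had interactions of 3.67 (SE 0.76, adjusted p = 0.078) and 2.84 (SE 0.70, 0.141), and the netrin receptor gene unc5b 2.37 (SE 0.49, 0.0744). In tbx5a the OF libraries of 56 hpf held 18.8, 5.70, 3.47, 12.5 and 0.828 normalised counts and those of 32 hpf 0, 0, 0 and 0.833, whereas DR held 48.5 to 94.3 at 56 hpf and 101 to 197 at 32 hpf. The difference in tbx5a at 56 hpf was -3.47 (SE 0.51).

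The other dorsal genes named here were not called either. The T-box gene tbx4 differed by -3.78 (SE 0.26) at 56 hpf and -3.42 (SE 0.29) at 32 hpf, an interaction of -0.35 (adjusted p = 0.837). The ephrin gene efnb2a (-2.46 and -2.98), the BMP pseudoreceptor gene bambia (-2.73 and -3.40) and the retinoic acid synthesis gene aldh1a2 (-3.48 and -4.52) had adjusted p of 0.245 to 0.642 for the interaction. The BMP ligand gene bmp4 (interaction 1.29, SE 0.33) and the inhibitory Smad gene smad6a (0.83, SE 0.23) missed the threshold with adjusted p of 0.145 and 0.196. The nuclear receptor gene nr2f2, on no axis list and named after its values were seen, had an interaction of 1.12 (adjusted p = 0.102).

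A further 3 called genes behaved like tbx3a and tbx2a without being on the dorsal list. The gene pah (ENSDARG00000020143), for the enzyme that turns phenylalanine into tyrosine, had 579, 529, 417, 489 and 804 in OF and 942, 713, 694, 847 and 1092 in DR at 56 hpf, and 214, 187, 160 and 148 in OF and 680, 688, 596 and 718 in DR at 32 hpf. DR stayed the higher in all 9 pairs, and the difference was -0.62 (SE 0.12) at 56 hpf and -1.92 (SE 0.13) at 32 hpf (interaction 1.304, SE 0.18, adjusted p = 0.00668). The retinoic acid-binding protein gene crabp2b (interaction 1.95, adjusted p = 0.031) and the thyroid hormone transporter gene slco1c1 (2.09, adjusted p = 0.0325) had 46.1 to 63.3 and 9.23 to 42.2 in OF at 32 hpf, against 188 to 482 and 68.9 to 150 in DR at 32 hpf, and the regions overlapped in both genes at 56 hpf. Leaving out pairs ended both calls in 6 and 7 of 9 fits (adjusted p up to 0.126).

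On the ventral side the netrin-1 gene ntn1a was the 1 gene called. Netrin is a secreted guidance and adhesion cue that marks the fissure margins. Its gene ntn1a (ENSDARG00000105112) had 553, 378, 418, 297 and 219 normalised counts in OF at 56 hpf, against 160, 214, 26.5, 24.4 and 27.3 in DR at 56 hpf. Libraries of 32 hpf had 936, 998, 1489 and 1088 in OF and 10.5, 29.7, 29.2 and 28.0 in DR. OF was above DR in all 9 pairs, and every OF library of 56 hpf was below every OF library of 32 hpf.

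The ntn1a difference was 2.61 (SE 0.36) at 56 hpf and 5.56 (SE 0.40) at 32 hpf, an interaction of -2.95 (SE 0.54, adjusted p = 0.0375). The high DR values were those of replicates 1 and 2, the pairs with muscle reads. Without both pairs the interaction was -2.08 (adjusted p = 0.163). The call was also lost without replicate 1 or 5 at 56 hpf or replicate 2, 4 or 5 at 32 hpf (adjusted p up to 0.128). The part of the muscle reads in this difference was not tested beyond that fit.

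Of the 15 ventral genes tested, ntn1a was the 1 called, against 0.288% of all genes tested. The median interaction was -1.32, or -0.74 with a floor of 3 reads per library in place of groups without reads. Of the 15, 12 were negative, against 50% of all genes. In 7 of them the differences did not overlap and were lower at 56 hpf, against 2.12% of all genes. The homeobox gene vax2, required for ventral identity, had 323, 413, 268, 253 and 316 in OF at 56 hpf and 532, 823, 759 and 804 in OF at 32 hpf, and DR held 5.12 to 44.4 at 56 hpf and 0 to 8.35 at 32 hpf. Its interaction was -3.67 (SE 0.78, adjusted p = 0.0851).

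Interactions of the other members of the ventral list named here did not pass the test. They were -2.79 (SE 0.83) for vax1, -2.88 (SE 0.74) for the BMP antagonist gene grem2b, -2.09 (SE 0.93) for the retinoic acid synthesis gene aldh1a3 and -2.13 (SE 0.85) for the matrix gene smoc1, with adjusted p of 0.145 to 0.465, and DR held at most 22.2 normalised counts of each at 56 hpf and 5.22 at 32 hpf. The BMP receptor gene bmpr1ba had -1.74 (adjusted p = 0.149), the forkhead gene foxd1 -1.32 (0.108) and the ephrin receptor gene ephb2b -0.74 (0.165). The value of foxd1 is also the list median. This gene was lower in OF in every pair of 56 hpf, with a difference of -0.36 (SE 0.20), against 0.96 (SE 0.22) at 32 hpf. The paired box gene pax2a, of the optic stalk and fissure, had a positive value of 1.96 (SE 0.94, adjusted p = 0.515), with 137 to 221 in OF and 0 to 55.5 in DR at 56 hpf and 584 to 952 in OF and 93.1 to 257 in DR at 32 hpf.

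Fissure and matrix genes outside the axis lists gave few calls. Of 48 orthologues of human coloboma genes, ntn1a was the 1 called, with a median interaction of -0.20. It was again the 1 called of 37 netrin and axon guidance genes, and over all genes tested 0.288% were called. Among 22 basement membrane genes limma called none, with 1 at an unadjusted p under 0.05, 0 called by edgeR and 1 by DESeq2. The extracellular matrix gene tnc (ENSDARG00000021948), which encodes tenascin C, was the 1 called of 33 fibrillar collagen and matrix genes. It had 1419, 1135, 904, 1532 and 1129 in OF and 970, 1012, 796, 1292 and 826 in DR at 56 hpf, and 85.8, 74.6, 103 and 103 in OF and 8.55, 25.6, 10.4 and 1.60 in DR at 32 hpf. The lead of OF was 0.32 (SE 0.35) at 56 hpf and 3.30 (SE 0.39) at 32 hpf (interaction -2.98, SE 0.52, adjusted p = 0.0312), and 7 of 9 fits that left out a pair lost the call, all but those without replicate 3 or 5 at 32 hpf.

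The secreted factor gene fam132a (ENSDARG00000070681) and the orphan receptor gene nr2f5, like ntn1a, had a lead in OF that narrowed. In fam132a OF held 161, 216, 369, 292 and 274 and DR 105, 42.0, 69.7, 14.8 and 16.4 at 56 hpf, while at 32 hpf OF held 502, 508, 662 and 589 and DR 0, 7.17, 6.26 and 5.61 (interaction -4.28, SE 0.74, adjusted p = 0.0282). For nr2f5 the difference was 1.08 (SE 0.20) at 56 hpf and 2.75 (SE 0.22) at 32 hpf (interaction -1.68, SE 0.30, adjusted p = 0.0325). Its OF libraries overlapped between the times, with 501 to 942 at 56 hpf and 523 to 1629 at 32 hpf. DR held 208 to 411 of nr2f5 at 56 hpf and 117 to 175 at 32 hpf. In both genes, OF was above DR in all 9 pairs. The Wnt antagonist gene sfrp1a (ENSDARG00000035521) went the other way: levels were lower at 56 hpf in both regions (666 to 944 in OF and 122 to 201 in DR at 56 hpf, against 1773 to 3063 in OF and 671 to 1384 in DR at 32 hpf), but the lead of OF widened to 2.33 (SE 0.14) at 56 hpf, against 1.13 (SE 0.16) at 32 hpf (interaction 1.19, SE 0.21, adjusted p = 0.0325).

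**Figure D3:**
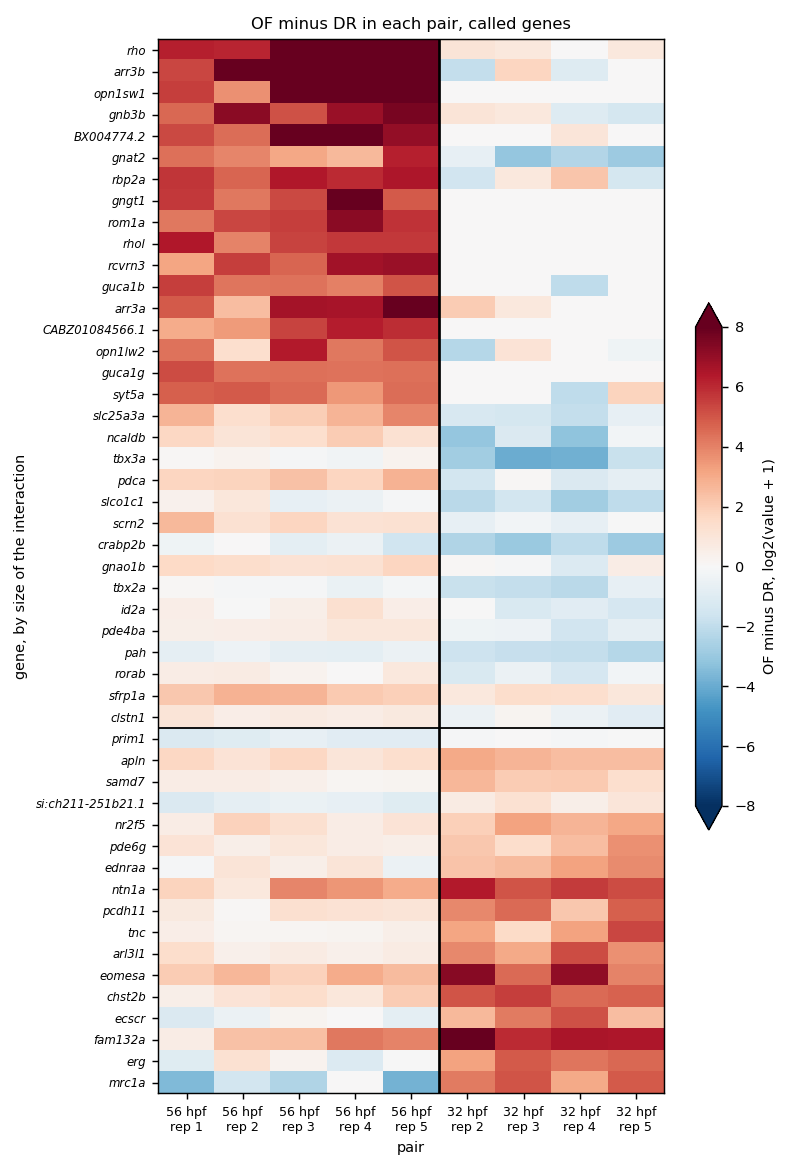
Heat map of the OF minus DR difference on the log2(value + 1) scale in each of the 9 pairs (columns, 56 hpf to the left of 32 hpf) for the 49 called genes (rows, from the largest positive to the largest negative interaction). Red marks genes higher in OF and blue genes lower in OF, and the scale is capped at 8. The upper block is red at 56 hpf and pale at 32 hpf for photoreceptor genes, and pale at 56 hpf and blue at 32 hpf for tbx3a, tbx2a and pah, while the lower block is red at 32 hpf except for prim1, which is pale at 32 hpf and blue at 56 hpf.

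Of the 42 endothelium and hyaloid vessel genes tested, 2 were called, apln and erg, both negative, against 0.0998% of all genes tested. Of the 42, 41 were negative, against 50% of all genes, and the median interaction was -1.12. The hyaloid vasculature enters the eye through the fissure, and in bulk tissue the share of cells of a type and the RNA per cell cannot be told apart. The apelin ligand gene apln (ENSDARG00000053279) had 2036, 1611, 1201, 931 and 820 normalised counts in OF at 56 hpf, against 640, 739, 378, 471 and 327 in DR at 56 hpf. At 32 hpf it had 552, 429, 557 and 354 in OF and 65.6, 64.5, 98.1 and 62.5 in DR. OF was above DR in all 9 pairs and the lead was 1.35 (SE 0.14) at 56 hpf and 2.69 (SE 0.16) at 32 hpf (interaction -1.33, SE 0.21, adjusted p = 0.0151). Values of apln were higher at 56 hpf than at 32 hpf in both regions.

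The mannose receptor gene mrc1a (ENSDARG00000102100), on no list, which marks venous and lymphatic endothelium in zebrafish, had 3.13, 1.90, 0, 0 and 0 in OF and 47.2, 7.16, 4.41, 0 and 12.5 in DR at 56 hpf. Its values at 32 hpf were 16.7, 31.6, 40.6 and 29.1 in OF and 0, 0, 4.18 and 0 in DR. OF was the higher in 0 of 5 pairs at 56 hpf, where 1 pair had no read in either region, and in 4 of 4 pairs at 32 hpf (interaction -6.52, SE 0.92, adjusted p = 0.00754). The endothelial transcription factor gene erg was read in both regions at 56 hpf and hardly in DR at 32 hpf, with 6.25 to 41.8 in OF and 11.7 to 22.9 in DR at 56 hpf and 8.37 to 41.6 in OF and 0 to 0.801 in DR at 32 hpf (interaction -4.35, SE 0.74, adjusted p = 0.0246).

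Also called negative, and likewise on no list, were ecscr, which encodes an endothelial surface protein (-4.02, adjusted p = 0.0403), and the endothelin receptor gene ednraa (-2.55, adjusted p = 0.0216). In the 9 fits that left out a pair, apln and mrc1a kept their calls in 9, ednraa in 5 and erg and ecscr in 2. Without both pairs of replicates 1 and 2 at 56 hpf none of these genes was called. Adjusted p (limma) was then 0.104 for apln and erg, 0.07 for mrc1a, 0.31 for ecscr and 0.217 for ednraa. The defining markers kdrl, cdh5 and fli1a were not called, at -0.71, -0.87 and -0.58, and the first of these turned to 0.08 without replicate 4 at 32 hpf. The vessel list took 0.0827% to 0.111% of reads in OF and 0.0771% to 0.103% in DR at 56 hpf, and 0.061% to 0.0841% in OF and 0.0332% to 0.0615% in DR at 32 hpf. Its median share was higher at 56 hpf in both regions, at 0.0974% against 0.0756% in OF and 0.0895% against 0.0441% in DR. The part of vessel cells in the results for other genes was not tested.

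Markers of other cells that a dissection could hold gave no call with limma. The erythrocyte, mesenchyme, pigment and muscle lists had 10, 8, 8 and 3 members at an unadjusted p under 0.05, which 10% of all genes tested reached. EdgeR called none of their members, and DESeq2 1 in all, in the mesenchyme list. The erythrocyte list (31 genes) had a median interaction of -1.03 with 27 negative, and took 0.0786% to 0.321% of reads in OF and 0.0223% to 0.201% in DR at 56 hpf, and 0.0568% to 0.151% in OF and 0.0161% to 0.0426% in DR at 32 hpf. The periocular mesenchyme and neural crest list (30 genes) had a median of -0.36, the pigment epithelium and melanin list (29 genes) 0.36 with 25 positive, and the skeletal and extraocular muscle list (31 genes) 0.93, where 19 of the 31 would not have passed the filter without the OF libraries of 56 hpf. The muscle genes ckma and mylpfa had group means of 821 and 2175 in OF and 213 and 725 in DR at 56 hpf, and at most 1.83 in any group at 32 hpf. Their part in the results was not tested beyond the fits without both pairs that carried them.

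Of the genes of dividing cells, prim1 fell in OF relative to DR, and the other members of both lists below also had negative values. DNA replication genes serve the copying of the genome in progenitors. The DNA primase subunit gene prim1 (ENSDARG00000040163) had 201, 143, 234, 213 and 247 normalised counts in OF at 56 hpf, against 451, 277, 370, 407 and 455 in DR at 56 hpf. At 32 hpf it had 743, 832, 859 and 1048 in OF and 798, 815, 910 and 1057 in DR. The regions overlapped at 32 hpf, with a difference of -0.04 (SE 0.12), and every OF library lay below every DR library at 56 hpf, with a difference of -0.92 (SE 0.11). The interaction was -0.87 (SE 0.17, adjusted p = 0.0444), and leaving out any 1 of the 9 pairs ended the call (adjusted p of 0.0655 to 0.128).

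Of the 52 DNA replication genes tested, prim1 was the 1 called, against 0.288% of all genes tested. All 52 had a negative interaction, against 50% of all genes, and the median was -0.63, beside -1e-04 over all genes. The differences did not overlap in 21 of them, all lower at 56 hpf, against 2.12% of all genes. The sliding clamp gene pcna and the methylation maintenance gene uhrf1, named after their values were seen, had interactions of -0.73 (adjusted p = 0.117) and -0.78 (0.0851). The list median of OF minus DR was -1.07 to -0.57 in the pairs of 56 hpf and -0.24 to -0.0047 in those of 32 hpf.

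Mitosis and spindle genes gave a like picture at smaller size. None of the 58 tested was called by limma, 0 by edgeR and 1 by DESeq2. An unadjusted p under 0.05 was reached by 28 of them, against 10% of all genes tested. All 58 were negative and the median interaction was -0.48. The cyclin gene ccna2 (-0.53, adjusted p = 0.179) and the chromosomal kinesin gene kif4 (-0.60, adjusted p = 0.231) were lower in OF in each pair of 56 hpf. Replicate 1 at 56 hpf had the widest gap in both lists, and without it the medians were -0.52 for DNA replication and -0.35 for mitosis. Without both pairs of replicates 1 and 2 the mitosis median was -0.29, with 57 of 58 negative.

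The Notch pathway acts among retinal progenitors. Of its 32 genes limma called none, edgeR 1 and DESeq2 5. An unadjusted p under 0.05 was reached by 14 of them, against 10% of all genes tested. The median interaction was -0.47 and 28 were negative. The bHLH gene hes6 had 1968, 2591, 3628, 3388 and 4309 in OF and 3882, 4937, 4984, 4491 and 5243 in DR at 56 hpf, and 13213, 11045, 17025 and 7909 in OF and 8933, 9590, 11059 and 7937 in DR at 32 hpf (interaction -0.96, SE 0.19, adjusted p = 0.0534). The ligand gene dlb had an interaction of -0.92 (adjusted p = 0.102). The gene that edgeR called was hes6, which also passed the threshold with TMM scaling.

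**Figure D4:**
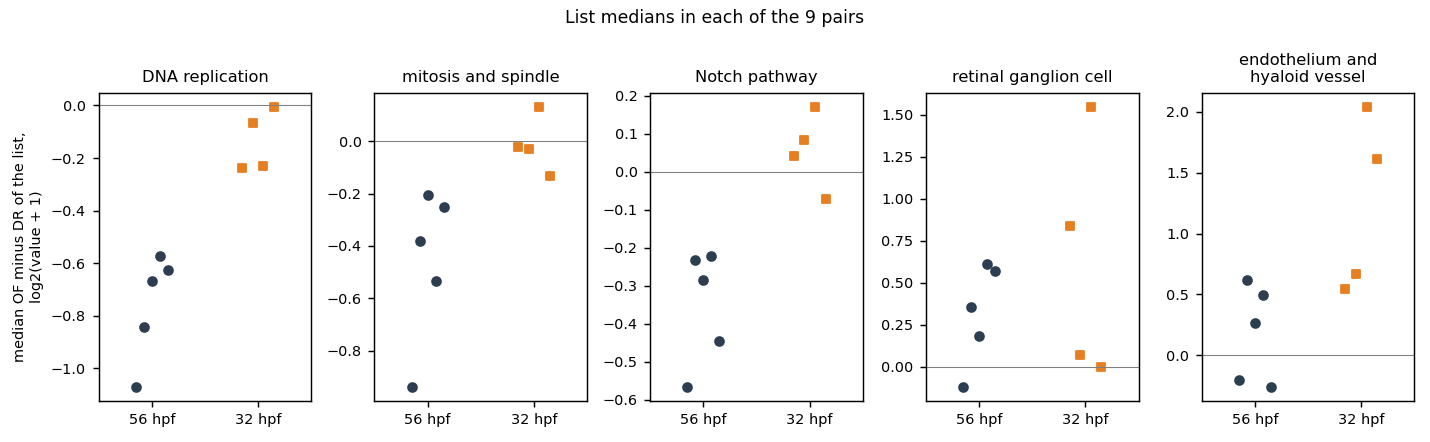
Median OF minus DR difference of 5 gene lists on the log2(value + 1) scale, with 1 point per pair, the 5 pairs of 56 hpf on the left and the 4 of 32 hpf on the right of each panel. For DNA replication, mitosis and spindle, and Notch pathway genes the 56 hpf pairs lie below the 32 hpf pairs, and for retinal ganglion cell and vessel genes the times overlap.

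Among neuronal genes, the interaction was negative for eomesa and positive for gnao1b. Ganglion cells are the first neurons born in the retina. Of 39 ganglion cell genes tested, 30 were negative, against 50% of all genes, and the median interaction was -0.52. The T-box gene eomesa was the 1 called, against 0.288% of all genes tested. It had 468, 701, 510, 629 and 797 in OF and 112, 110, 138, 80.9 and 140 in DR at 56 hpf, and 155, 285, 281 and 14.99 in OF and 0, 11.3, 1.04 and 0 in DR at 32 hpf, and OF was above DR in all 9 pairs (interaction -3.33, SE 0.63, adjusted p = 0.0423). Its group means were higher at 56 hpf in both regions, at 621 against 184 in OF and 116 against 3.08 in DR. The call was lost with a pseudocount of 5 and kept in 2 of 9 fits that left out a pair. The defining markers atoh7 (-0.98), isl2b (-1.04), pou4f2 (-0.77) and rbpms2b (-0.63) had adjusted p of 0.218 to 0.651. For the list median without replicate 4 at 32 hpf the value was -0.13.

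Among 26 bipolar cell genes, the G protein gene gnao1b, which acts in ON bipolar cells in the mouse, was the 1 called (all genes 0.288%). It had 4807, 3441, 1599, 1994 and 1491 in OF and 1577, 1295, 718, 841 and 455 in DR at 56 hpf, and 61.7, 72.2, 76.6 and 143 in OF and 58.9, 76.8, 163 and 96.2 in DR at 32 hpf (interaction 1.56, SE 0.28, adjusted p = 0.0325). The list median was 0.14 with 13 positive and 13 negative, and its sign changed with edgeR. The markers cabp5a and vsx1 had interactions of 3.04 (adjusted p = 0.109) and 0.37 (0.452).

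Further called genes lay outside these lists. The calcium sensor gene ncaldb had 647, 374, 186, 273 and 168 in OF and 208, 179, 73.2, 67.0 and 71.7 in DR at 56 hpf, and 1.05, 4.05, 3.69 and 9.99 in OF and 16.2, 10.2, 41.8 and 12.02 in DR at 32 hpf. DR was thus the higher in every pair used of 32 hpf and OF in every pair of 56 hpf (interaction 3.36, SE 0.60, adjusted p = 0.0325). In the left-out pair of replicate 1 at 32 hpf the difference of ncaldb was 0. The mitochondrial phosphate carrier gene slc25a3a (ENSDARG00000027424) took the same course, with 1342, 710, 152, 410 and 209 in OF and 205, 278, 37.9, 60.9 and 13.3 in DR at 56 hpf and 9.23 to 20.8 in OF and 32.9 to 37.9 in DR at 32 hpf (interaction 3.83, SE 0.49, adjusted p = 0.00516). Its difference in the left-out pair was -7.03.

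The nuclear receptor gene rorab (1.295), the cyclic AMP phosphodiesterase gene pde4ba (1.42) and scrn2 (1.97) were also higher in OF in every pair of 56 hpf and lower in OF in every pair used of 32 hpf, with adjusted p of 0.0407 to 0.0444. In the left-out pair of replicate 1 at 32 hpf, OF was the higher in these genes, by 0.44, 0.25 and 4.71. The calsyntenin gene clstn1 (1.13), the synaptotagmin gene syt5a (4.49), the retinol-binding protein gene rbp2a (5.80) and id2a (1.43), which encodes an inhibitor of bHLH factors, were called positive too. For id2a the replicate 2 pairs of both times had differences near 0, which is where the 2 times overlapped. The protocadherin gene pcdh11 (-2.96) and the sulfotransferase gene chst2b (-3.77, with 22.1 to 44.6 in OF and no read in DR at 32 hpf) were called negative.

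Clone names are carried by 3 called genes. The gene si:ch211-251b21.1 (ENSDARG00000007275) had 1462, 1451, 1128, 1281 and 1688 in OF and 3203, 2370, 1657, 2064 and 3297 in DR at 56 hpf, and 1494, 1519, 1051 and 587 in OF and 968, 658, 763 and 296 in DR at 32 hpf. It was the 1 called gene in which OF was above DR in every pair of 32 hpf and below it in every pair of 56 hpf (interaction -1.63, SE 0.18, adjusted p = 0.00264), and it kept its call without replicates 1 and 2 at 56 hpf (-1.56, adjusted p = 0.0226). BX004774.2 (6.41) and CABZ01084566.1 (4.79) were at 59.6 to 646 in OF at 56 hpf and at most 0.923 in any library of 32 hpf.

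Over the 38 gene lists, 31 of the 49 called genes were list members, and 20 lists had no called member. The 31 were 2.68% of the 1157 list genes tested, against 0.288% called among all genes tested. The lists were written with earlier results of these data known, so nothing is drawn from this excess. In the signalling lists, 1 of 44 BMP genes (id2a), 1 of 45 Wnt genes (sfrp1a) and 2 of 29 retinoic acid genes (crabp2b and rbp2a) were called, all positive, with medians of 0.09, 0.01 and 0.0026. Limma called none among 19 Hedgehog genes (median -0.18), 24 FGF genes (-0.11), 21 TGF-beta genes (-0.27) and 25 Hippo genes (-0.01). An unadjusted p under 0.05 was reached by 1, 4, 7 and 3 of them, against 10% of all genes tested. EdgeR called 0 of them and DESeq2 1, in the TGF-beta list. The medians of the BMP, Wnt, retinoic acid, TGF-beta and Hippo lists changed sign under at least 1 alternative.

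**Figure D5:**
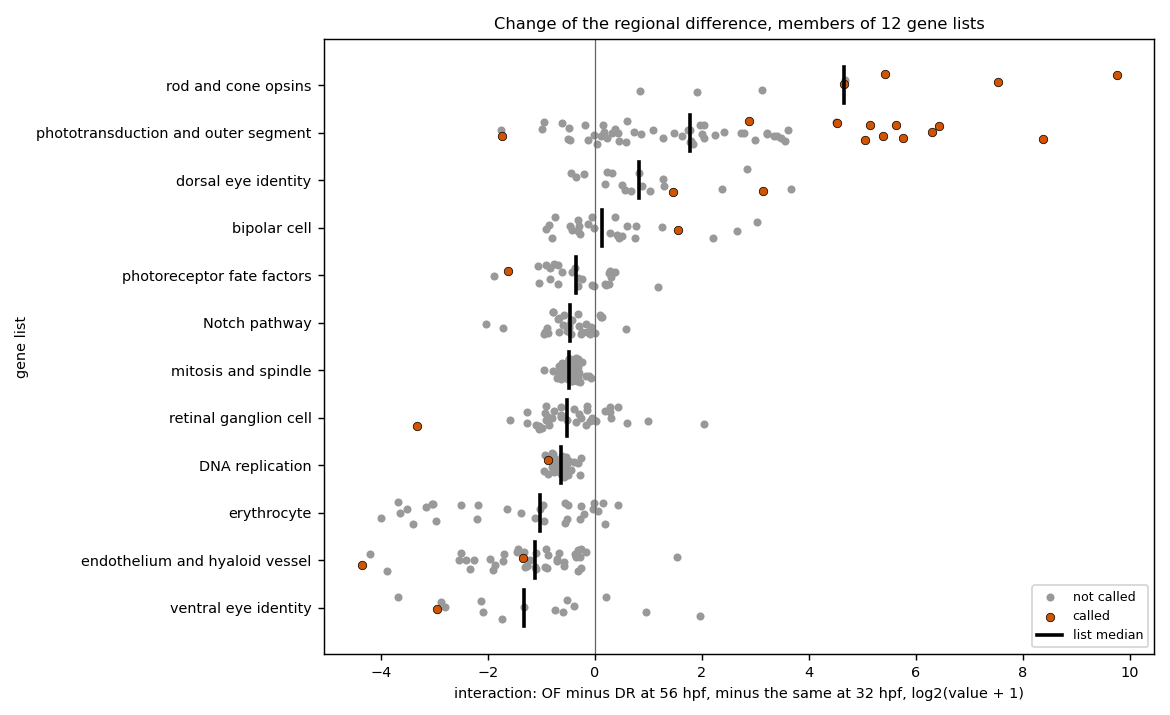
Interaction of each tested member of 12 gene lists on the log2(value + 1) scale, 1 row per list and 1 point per gene, with called genes in orange, other genes in grey and the list median as a black bar. Dorsal genes lie mostly above 0, as do opsin and phototransduction genes, of which 6 of 8 and 24 of 60 would not have passed the filter without OF at 56 hpf, and ventral, vessel, DNA replication and mitosis genes mostly or all below it.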

How the data were processed

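RNA of dissected zebrafish retinal regions was sequenced in 30 libraries, 5 replicates in each of 6 groups, and 18 libraries (9 pairs) were used here. The pair of replicate 1 at 32 hpf was left out by the rule that defines the comparison and was restored as an alternative. The deposited values are a signal, reads per gene that the authors divided by 1 size factor per library (normalised read counts). Per the submitters' processing notes, the build was GRCz10 and the tools were STAR 2.4.0, HTSeq, Picard, DESeq2 and Trim Galore, whose roles and order are not stated. The annotation release and the strand setting are not given in the sources used here, so reads of overlapping genes cannot be told apart, and paralogs such as the cone opsin and arrestin genes may share reads. In every library used, 100% of values were whole multiples of 1 step within 0.01 reads, and reads recovered in this way served edgeR, DESeq2 and the depth figures.

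Of 27731 genes, the 17031 that reached 10 normalised counts in 4 or more of the 18 libraries were tested. Differences OF minus DR of log2(value + 1) within each replicate number were fitted with limma 3.58.1 (trend, R 4.3.3). Tests were two-sided with Benjamini-Hochberg adjustment over all genes tested, and a gene was called under 0.05. This scale shrinks differences between low values towards 0, which can make an interaction smaller or larger. The floor was 3 reads per library, which covers counting error only. It was set only in groups without any read, and groups with few reads were left unchanged. With it the interaction was 3.07 for guca1g, against 4.53. For rho it was 11.3, against 9.75. There the floor raised DR of the earlier time (0 reads) above OF of that time (3 reads in all). The larger value for rho therefore comes from the floor itself and is no bound on the interaction. Same-numbered OF and DR libraries of a time deviated together from their group means, with r of 0.25 to 0.53 (median 0.43), and each of the 9 pairs correlated best with its own number. The labels do not tie the numbers to shared animals, and p-values measure the spread between these samples.

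The comparison, its members and the 38 gene lists were chosen with earlier results of these data known, so a list count is a description and no list was tested as a set. Of 1418 list names, 1342 were found as written, 28 by current symbol, 12 by synonym and 36 not at all, and 1157 different genes were tested. Named genes were the 15 largest positive and 15 largest negative interactions and the 10 smallest adjusted p among called genes that carry a symbol and reach a group mean of 50, up to 4 called members of a described list (1 to 2 uncalled where none was called), and axis genes. Others are said to be named after their values were seen or are defining markers of a cell type. Alternatives were other pseudocounts, filters, scalings, weights and blocks, edgeR 4.0.16, DESeq2 1.42.0 and leaving out pairs. The fit was checked on simulated data.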

Additional observations from a re-analysis of the deposited data

Results flagged for a closer look

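The interaction itself sets the 2 times apart, and 49 genes passed its test. In 7 of them every pair of 56 hpf lay on the other side of 0 from every pair used of 32 hpf: rorab (1.295), ncaldb (3.36), slc25a3a (3.83), pde4ba (1.42), gnat2 (6.29) and scrn2 (1.97), higher in OF at 56 hpf, and si:ch211-251b21.1 (-1.63), lower in OF at 56 hpf. The left-out pair of replicate 1 at 32 hpf had the sign of 56 hpf for gnat2 (1.31), scrn2 (4.71), rorab (0.44) and pde4ba (0.25). It had the sign of 32 hpf for slc25a3a (-7.03) and si:ch211-251b21.1 (1.81), and was 0 for ncaldb. The left-out libraries held a read in 13854 genes in OF and 11777 in DR. The 32 hpf libraries used held a read in 17462 to 19311 genes. The value of 1.31 for gnat2 was also that of mrc1a, opn1lw2 and arr3a in this pair. Single-gene signs in it are therefore weak ground.

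Of 230 groups of values examined for a single value far from the rest, 16 held one. A rate of 1 in 20 would give 11.5, but that rate assumes independent, normal values. The genes share the same 9 pairs, and a lone value beside 0 in all other pairs is always flagged. The 16 can therefore not be set against 11.5. Several of the 16 rest on single reads at 32 hpf. The OF minus DR difference of rho was 0 in replicate 4 at 32 hpf and 0.86 to 1.03 in the others. That of guca1b was -2.05 in replicate 4, that of BX004774.2 0.94 in replicate 4 and that of gngt1 0.025 in replicate 5, each beside 0 in the other pairs of 32 hpf.

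Among genes with more reads, guca1g stood at 5.19 in replicate 1 at 56 hpf, beside 4.32 to 4.39 in the others, and arl3l1 at 1.43 in the same replicate, beside 0.40 to 0.66. The matrix gene smoc1 was at 1.99 in replicate 1 at 56 hpf and at 5.35 to 5.73 in the other pairs of that time. In replicate 2 at 56 hpf, smad6a was at -0.082 (others -0.89 to -0.69), opn1lw1 at -0.72 (others 3.30 to 4.59) and the integrin gene itga5 at 0.89 (others -0.76 to -0.28). At 32 hpf the endothelial factor gene etv2 was at 0.97 in replicate 3 (others 2.69 to 2.96) and fli1a at 2.601 in replicate 4 (others 0.55 to 0.77).

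Of the library measures, DR replicate 1 at 56 hpf held a read in 25740 genes, beside 18938 to 20240 in the other DR libraries of that time. Lens crystallin genes took 0.0683% of its reads, and 0.0514% in OF replicate 2 at 56 hpf, while the other 8 libraries of 56 hpf had at most 0.00971%. Surface ectoderm and cornea genes took 0.0194% of reads in OF replicate 4 at 32 hpf and at most 0.0104% in the other OF libraries of that time.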

How the results depend on the processing

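All 49 called genes kept their direction under each of the 23 alternatives that tested them, while no gene kept its call under all 23. The count of 49 (32 positive, 17 negative) stayed within 1.5 times under pseudocounts of 0.5 and 5, a mean filter of 50, TMM scaling, array weights and robust moderation (41 to 61), and 75.4% of calls were positive with the pseudocount of 5. Without a filter 21 genes were called (15 positive, 6 negative). Quantile scaling gave 70 calls, 29 of them negative. Without the replicate block 2 were called (2 positive, 0 negative), where 699 genes had an unadjusted p under 0.05, and with the replicate number as a block across times 5 (4 positive, 1 negative). Adding the pair of replicate 1 at 32 hpf gave 21 calls (17 positive, 4 negative). On recovered reads with the pair as a block, edgeR called 30 genes (8 positive, 22 negative), 23 of them among the 49, with a median over all genes of -0.12, and DESeq2 called 220 (71 positive, 149 negative), 38 of them among the 49 and 32.3% positive. Leaving out single pairs gave 19 to 57 calls, 14 to 28 positive and 4 to 30 negative. Without both pairs of replicates 1 and 2 at 56 hpf, an alternative chosen after seeing the data, 12 were called (11 positive, 1 negative). Fits on fewer pairs have fewer degrees of freedom; the cause of the other shifts was not tested. Of 2208 values for 97 single genes, 450 lost and 49 gained a call and 3 changed sign: opn1sw2 to -0.058 with the block across times and without replicate 1 at 56 hpf (leaving out single pairs gave -0.058 to 1.42), and kdrl to 0.080 without replicate 4 at 32 hpf (-1.55 to 0.080). With 3 reads or fewer per library in 16 called genes at 32 hpf, depth limits how far a regional difference at that time can be stated for them. The same holds for the DR side of negative calls: chst2b, erg, mrc1a, pcdh11, ecscr, arl3l1 and eomesa had 0 to 12 reads in the 4 DR libraries of 32 hpf together. With the floor of 3 reads the interaction of chst2b was -2.26, against -3.77. Of the 33 called genes outside these 16, 28 kept their call with the pseudocount of 5. Those that lost it included chst2b, eomesa and samd7.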

Other observations

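Müller glia are the radial support cells of the retina and share genes with progenitors. Of 21 genes tested, limma called none, edgeR 1 and DESeq2 5. An unadjusted p under 0.05 was reached by 9 of them, against 10% of all genes tested. The median interaction was -0.11 with 12 negative. The intermediate filament gene gfap had 39.6, 30.4, 66.7, 25.02 and 45.6 normalised counts in OF and 29.1, 13.3, 3.53, 0.87 and 12.5 in DR at 56 hpf, and 19.9, 58.4, 70.12 and 19.99 in OF and 31.4, 100.4, 77.2 and 62.5 in DR at 32 hpf. OF was the higher in every pair of 56 hpf and the lower in every pair of 32 hpf, with an interaction of 3.00 (SE 0.75) that did not pass the test (limma, adjusted p = 0.142).

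Amacrine and horizontal cells are the inhibitory interneurons of the retina. Limma called none of their 37 genes tested, edgeR 0 and DESeq2 2. An unadjusted p under 0.05 was reached by 8 of them, against 10% of all genes tested. The median was -0.15. The forkhead gene foxn4, which acts in progenitors of both types in the mouse, had 1124 to 2968 in OF and 2429 to 4153 in DR at 56 hpf and 3194 to 7224 in OF and 4226 to 7196 in DR at 32 hpf (interaction -0.75, SE 0.17, adjusted p = 0.108). Of 44 progenitor and ciliary margin genes, id2a was the 1 called, the median was -0.25 and 28 were negative. Over all genes tested, 0.288% were called and 50% were negative.

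In the synaptic vesicle list 1 of 50 genes was called (syt5a), with a median of 0.29 that changed sign without replicate 5 at 56 hpf (-0.03), and in the circadian clock list 1 of 39 (rorab), with a median of 0.12 and 27 positive. Cell adhesion genes (28, median -0.32) had no call with limma or edgeR and 2 with DESeq2. An unadjusted p under 0.05 was reached by 7 of them, against 10% of all genes tested. The integrin gene itga5, with OF above DR in each pair of 32 hpf and in 1 of 5 pairs of 56 hpf, had an interaction of -2.91 (SE 0.59, adjusted p = 0.0648). Visual cycle genes (26, median 0.02) had 1 at an unadjusted p under 0.05 and no call with limma, edgeR or DESeq2.

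Of 86 ribosomal protein genes 80 had a negative interaction, with a median of -0.20, 3 at an unadjusted p under 0.05 and no call with limma, edgeR or DESeq2. The median was -3e-04 without replicate 2 at 32 hpf and 0.04 without both pairs of replicates 1 and 2 at 56 hpf. Stress and immediate early genes (43, median 0.11), lens crystallin genes (9, 0.29), macrophage genes (24, -0.25) and surface ectoderm genes (12, -0.28) had no call with limma or edgeR, 3, 1, 2 and 1 at an unadjusted p under 0.05, and 1, 1, 0 and 0 calls with DESeq2.

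In the pair of replicate 1 at 32 hpf, which the comparison leaves out, 32 of the 49 called genes had a read, and in 18 of these the difference lay nearer the mean of 32 hpf than that of 56 hpf. The libraries of this pair held a read in fewer genes than any library used (13854 in OF and 11777 in DR), so this count is a description only.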
